A study of Mus musculus with 50 samples.

Results

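Immediate early genes are a set of 10 genes (Fos, Fosb, Jun, Junb, Egr1, Ier2, Ier3, Atf3, Klf4 and Myc) whose levels were followed through 50 mammary gland tumors. They were taken by gene name from an expression table of 37701 genes, where each name had 1 row, and all 10 were among the 16733 genes with a mean of at least 0.5 RPKM that were tested. RPKM, reads scaled for gene length and library size, was the deposited unit. The tumors came from female p53R270H/+WAPCre mice, in which a Cre recombinase under the control of the milk protein promoter Wap switches on a mutant p53 allele in mammary epithelium, so that all groups, controls included, carry the p53 mutation. From an age of 8 weeks the mice had received a subcutaneous injection every other day of vehicle, insulin, glargine (a long-acting insulin analogue), X10 (an insulin analogue with a raised affinity for the IGF1 receptor) or IGF1. A tumor was taken at a size of 1 cm3, 24 h after the last injection. There were 10 tumors per treatment, chosen by the study among EMT-like tumors (tumors with a mesenchymal appearance) because their latency lay nearest to the median of their group. The tumors titled untreated were taken as the vehicle group, and doses are not given in the sources used here. Library sizes, read back from the steps of the RPKM values, lay between 26.6 and 51.9 M reads, with group medians between 35.4 M reads for X10 and 43.9 M reads for vehicle.

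Immediate early genes are switched on within minutes of a stimulus, without new protein synthesis, and their transcripts decay quickly. Growth factor receptors such as the insulin receptor and the IGF1 receptor reach them through the ERK kinase cascade and through the factors SRF, ELK and CREB that sit at their promoters; stress, cytokines and tissue handling switch them on as well. Fos, Fosb, Jun and Junb encode subunits of the AP-1 transcription factor, Atf3 a stress-responsive factor that pairs with Jun proteins, Egr1 and Klf4 zinc finger factors, Myc the driver of growth and ribosome production, and Ier2 and Ier3 small proteins induced by the same stimuli.

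The question put to these genes was whether mice that had been injected repeatedly with a ligand of the insulin or IGF1 receptor carried tumors with a different level of the genes that those receptors switch on. At a Benjamini-Hochberg adjusted p under 0.05 (limma on log2(RPKM + 0.5), all 5 groups in the fit), 0 of 10 genes were called in any of the 12 comparisons made. Calls were rare among all tested genes too, between 0% and 1.78% of them by comparison, so that this count says little about the 10 genes. What did differ was the level between tumors of the same group, and this spread was not shared by all 10 genes. Junb, Ier2, Ier3 and Atf3 went up and down together, Fos followed genes of osteoclasts, and Jun was at its highest in a single vehicle tumor in which its chromosomal neighbours were high too.

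The promoters of the genes on which these observations turn are printed first, as the 250 bases before the RefSeq start site (build GRCm38.p6), 5′ to 3′ on the strand of the gene. Fos lies at chr12:85473640-85473889 on the plus strand, Junb at chr8:84978749-84978998 on the minus strand, Atf3 at chr1:191183334-191183583 on the minus strand, Ier3 at chr17:35821463-35821712 on the plus strand and Jun at chr4:95052223-95052472 on the minus strand. Capitals mark the core of the CREB site, TGACG or its complement, and the TATA box, TATAAA.
Fos: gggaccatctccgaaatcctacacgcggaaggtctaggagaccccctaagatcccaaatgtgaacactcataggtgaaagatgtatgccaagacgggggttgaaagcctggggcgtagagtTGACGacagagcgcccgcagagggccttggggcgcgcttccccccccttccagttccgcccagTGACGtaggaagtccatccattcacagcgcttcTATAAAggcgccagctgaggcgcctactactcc
Junb: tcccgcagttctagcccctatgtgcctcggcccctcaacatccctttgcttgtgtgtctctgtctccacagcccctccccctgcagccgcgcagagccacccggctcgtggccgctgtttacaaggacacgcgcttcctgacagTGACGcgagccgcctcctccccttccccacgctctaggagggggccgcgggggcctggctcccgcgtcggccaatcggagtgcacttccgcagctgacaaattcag
Atf3: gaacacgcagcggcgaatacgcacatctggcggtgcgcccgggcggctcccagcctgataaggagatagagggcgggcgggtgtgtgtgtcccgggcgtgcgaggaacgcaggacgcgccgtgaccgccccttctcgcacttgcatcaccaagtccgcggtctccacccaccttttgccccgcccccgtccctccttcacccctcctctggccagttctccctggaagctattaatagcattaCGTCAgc
Ier3: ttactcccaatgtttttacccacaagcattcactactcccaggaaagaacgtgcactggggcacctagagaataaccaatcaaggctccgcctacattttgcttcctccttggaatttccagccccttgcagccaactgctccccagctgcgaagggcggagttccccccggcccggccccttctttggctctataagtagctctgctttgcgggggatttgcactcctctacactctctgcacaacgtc
Jun: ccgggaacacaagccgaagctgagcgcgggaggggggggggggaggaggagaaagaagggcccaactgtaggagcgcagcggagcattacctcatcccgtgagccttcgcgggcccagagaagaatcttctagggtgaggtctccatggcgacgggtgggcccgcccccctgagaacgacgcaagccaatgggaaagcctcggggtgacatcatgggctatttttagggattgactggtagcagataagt

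RefSeq promoter windows were searched for 7 of the 10 genes: those printed above, Fosb and Klf4. Egr1, Ier2 and Myc were not searched. Both strands were searched, over 32851 promoter windows of the same length. The CREB core TGACG was found in 5 of 7 (Fos, Fosb, Junb, Atf3 and Klf4), against 17.8% of all windows, and Fos held 2 copies. The whole CREB site TGACGTCA, which contains that core, was in 0 of 7 and in 1.55% of all windows. The CArG box, to which SRF binds, was in 0 of 7 and 1.47%, the AP-1 site TGANTCA in 0 of 7 and 6.75%, and the ETS site CCGGAAG in 0 of 7 and 6.91%. The site of EGR proteins, GCGNGGGCG, was in 2 of 7 (Fosb and Klf4) and 4.70%, the E-box CACGTG in Klf4 and 6.02%, and TATAAA in Fos and 12.4%. A loose NF-kB pattern, not capitalised, was in 6 of 7 and in 45.8% of all windows. These matches are letters in a window and not measured binding sites. Sites outside the 250 bases, or with other letters than these patterns, were not searched. A count of 0 of 7 therefore does not show that a factor has no site at these genes. The matches did not separate Fos from Junb and Atf3, which all hold the CREB core, while Ier3 and Jun do not.

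Fos, the founding partner of AP-1, had its highest median in glargine tumors. In vehicle tumors Fos was between 20.8 and 66.2 RPKM with a median of 29.6, and in insulin tumors between 14.6 and 46.5 with a median of 21.5. Glargine tumors reached from 20.6 to 127 RPKM with a median of 40.5. In X10 tumors Fos was between 10.2 and 83.0 RPKM with a median of 22.6, and in IGF1 tumors between 9.87 and 54.5 with a median of 24.1. The ranges of all 5 groups overlapped, and of the 10 glargine tumors 5 were at or above 55.6 RPKM and the others at or below 25.5. On the log2 scale Fos was 0.87 higher in glargine than in insulin tumors (SE 0.32, 95% interval 0.22 to 1.52), with 9 of 10 glargine tumors above the insulin mean. That difference had an unadjusted p of 0.0097 and an adjusted p of 0.990 in limma. The difference was -0.87 between IGF1 and glargine (adjusted p = 0.676) and -0.77 between X10 and glargine (adjusted p = 0.286). Against vehicle the log2 difference of Fos was -0.45 in insulin, 0.42 in glargine, -0.35 in X10 and -0.45 in IGF1 tumors, with an SE of 0.32 for each. Single tumors moved these values: without glargine_64 the glargine difference was 0.245, and the X10 difference was -0.21 without X10_115 and -0.54 without X10_100. Over the 5 groups the unadjusted p of Fos was 0.042 and the adjusted p 0.366.

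Fosb, a close relative of Fos, was the weakest of the 10 in reads, with between 44 and 963 reads per tumor. Its group medians lay between 0.736 RPKM in IGF1 and 1.23 in glargine tumors. The highest value, 6.59 RPKM, was measured in glargine tumor glargine_53 (tumors are named as in their titles, with the number of the mouse), and the next glargine tumor had 2.27. The log2 difference between glargine and insulin was 0.54 (SE 0.25, unadjusted p = 0.033, adjusted p = 0.990), with 5 of 10 glargine tumors above the insulin mean. Without tumor glargine_53 it was 0.33.

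Jun, the main AP-1 partner of Fos, had differences between group means that were smaller than their SE against vehicle. The medians were 46.0 RPKM in vehicle, 57.1 in insulin, 59.0 in glargine, 53.2 in X10 and 67.6 in IGF1 tumors. Vehicle tumors reached from 32.6 to 364 RPKM, and the other groups lay between 31.0 (IGF1 tumor IGF1_145) and 116.3 (IGF1 tumor IGF1_158). The vehicle maximum came from tumor Untreated_194, the next vehicle tumor having 72.1 RPKM. Against vehicle, Jun differed on the log2 scale by 0.05 in insulin, 0.04 in glargine, -0.11 in X10 and 0.18 in IGF1 tumors, with an SE of 0.25 and adjusted p-values of at least 0.907. Without vehicle tumor Untreated_194 they were 0.34, 0.33, 0.18 and 0.47, and their adjusted p-values stayed at or above 0.377. Without IGF1 tumor IGF1_158 the IGF1 difference was 0.08.

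Junb, an AP-1 subunit that often opposes Jun in growth control, had its widest range in vehicle tumors. These lay between 51.5 and 238 RPKM with a median of 112.9. In insulin tumors the range was 55.8 to 123.7 (median 86.6), in glargine 59.7 to 123.6 (median 81.5), in X10 59.7 to 137 (median 91.6) and in IGF1 56.9 to 155 (median 82.8). Vehicle tumors thus supplied both the lowest (Untreated_197) and the highest (Untreated_174) Junb value of all 50. The log2 difference from vehicle was -0.42 for glargine (SE 0.20, limma unadjusted p = 0.044, adjusted p = 0.789). For IGF1 it was -0.40 (unadjusted p = 0.055, adjusted p = 0.575). It was -0.34 for insulin and -0.29 for X10, neither with an unadjusted p under 0.05. Without tumor Untreated_174 these were -0.21 and -0.17. With leukocyte and epithelial marker scores in the fit the differences of Junb were -0.24 in glargine, -0.06 in IGF1, -0.07 in insulin and -0.22 in X10 tumors. With a hypoxia gene score in the fit instead, an alternative added after seeing the data, they were -0.45 in glargine, -0.53 in IGF1, -0.29 in insulin and -0.46 in X10 tumors (adjusted p of at least 0.201).

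Egr1, a zinc finger factor induced by ERK signaling, had the lowest median in IGF1 tumors. The medians were 12.3 RPKM in vehicle, 14.8 in insulin, 14.9 in glargine, 13.5 in X10 and 10.1 in IGF1 tumors. IGF1 tumors lay between 6.31 and 14.6 RPKM, and insulin tumors between 12.4 and 21.2. The ranges overlapped, but 0 of 10 IGF1 tumors was above the mean of the insulin group. The log2 difference was -0.58 between IGF1 and insulin (SE 0.20, 95% interval -0.99 to -0.18, unadjusted p = 0.0058, adjusted p = 0.542). It was -0.52 between IGF1 and X10 (adjusted p = 0.359), -0.47 between IGF1 and glargine (adjusted p = 0.679) and -0.44 between IGF1 and vehicle (adjusted p = 0.523). In the 5-group test Egr1 had an unadjusted p of 0.046 and an adjusted p of 0.374. With leukocyte and epithelial marker scores in the fit, the difference between IGF1 and vehicle was -0.21 (adjusted p = 0.902).

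Atf3 and Ier3 had the widest spread within groups of the 10 genes. Atf3 had medians of 14.9 RPKM in vehicle, 8.60 in insulin, 6.48 in glargine, 10.4 in X10 and 9.55 in IGF1 tumors. Its 50 values reached from 2.76 RPKM (glargine tumor glargine_67) to 35.3 (vehicle tumor Untreated_182). The log2 difference between glargine and vehicle was -0.73 (SE 0.37, unadjusted p = 0.054, adjusted p = 0.789), with a 95% interval from -1.48 to 0.01. Ier3, which modulates cell survival, had medians between 76.2 RPKM in insulin and 119 in vehicle tumors. It covered 20.3 (insulin tumor insulin_15) to 277 RPKM (X10 tumor X10_100), and its log2 differences from vehicle lay between -0.23 and 0.09 with an SE of 0.44. The lowest, that of insulin, was -0.02 without insulin_15 and -0.45 without Untreated_197. With leukocyte and epithelial marker scores in the fit the differences of Ier3 were 0.46 in insulin, 0.54 in glargine, 0.33 in X10 and 0.65 in IGF1 tumors, and those of Atf3 -0.20, -0.47, -0.28 and -0.09, with adjusted p-values of at least 0.735. With a hypoxia gene score in the fit instead, Ier3 differed from vehicle by -0.35 in X10 and -0.34 in IGF1 tumors, the opposite sign. Only 1.46% of the variance of Ier3 lay between groups.

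Ier2, Klf4 and Myc varied less. Ier2 had medians between 26.2 RPKM in X10 and 38.8 in vehicle tumors, and X10 differed from vehicle by -0.24 on the log2 scale (adjusted p = 0.621), and by -0.38 without Untreated_197. With the marker scores in the fit Ier2 differed from vehicle by 0.09 in insulin and 0.16 in IGF1 tumors, against -0.11 and -0.13 without them, and by -0.22 in IGF1 tumors with an osteoclast gene score instead. Klf4, a factor of epithelial differentiation, had medians between 42.1 RPKM in insulin and 56.8 in IGF1 tumors. The log2 difference of Klf4 between IGF1 and insulin was 0.37 (SE 0.18, unadjusted p = 0.049, adjusted p = 0.677), with 9 of 10 IGF1 tumors above the insulin mean. In the pooled X10 and IGF1 tumors Klf4 was 0.22 above the other groups (SE 0.12, adjusted p = 0.530).

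Myc had the narrowest spread of the 10. Its medians were 48.7 RPKM in vehicle, 45.3 in insulin, 42.1 in glargine, 41.2 in X10 and 52.0 in IGF1 tumors. The log2 differences from vehicle were -0.31 for insulin (adjusted p = 0.404), -0.33 for glargine (adjusted p = 0.789), -0.28 for X10 (adjusted p = 0.457) and -0.11 for IGF1 (adjusted p = 0.913), with an SE of 0.14. A single vehicle tumor, Untreated_161, had 126 RPKM against 61.0 in the next. Without that tumor the differences were -0.17, -0.19, -0.14 and 0.03. With the marker scores in the fit they were -0.19, -0.25, -0.23 and -0.01.

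**Figure D1:**
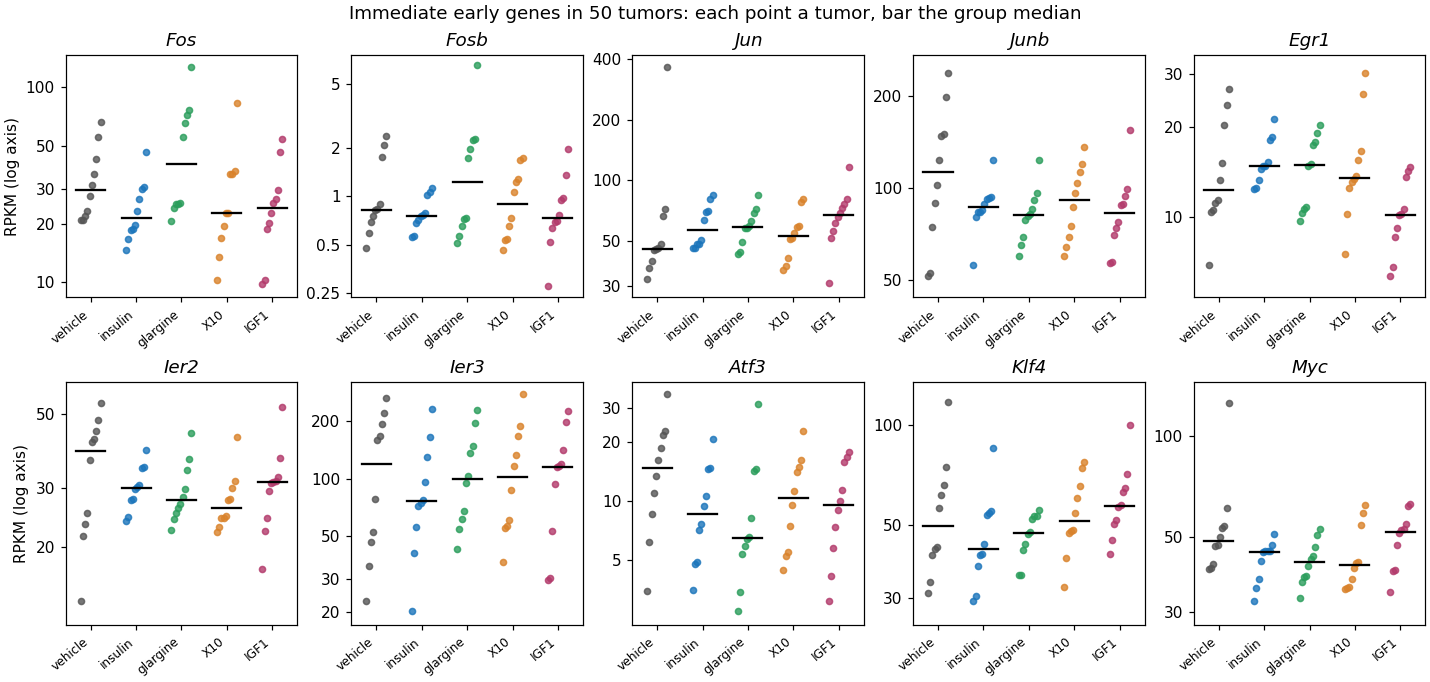
RPKM of the 10 genes on a log axis in each of the 50 tumors, by treatment group; each point is a tumor and each bar the median of 10 tumors. The groups overlap for every gene, and single tumors stand far above the rest for Jun (364 RPKM), Fosb (6.59) and Myc (126).

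Counted over all genes, calls were few. The share of the 16733 tested genes called was 0% for insulin against vehicle, 0% for glargine against vehicle, 0.0657% for X10 against vehicle and 0.00598% for IGF1 against vehicle. It was 0.155% for X10 and IGF1 together against vehicle, insulin and glargine together. Between treatments it was 0% for glargine against insulin, 0.102% for X10 against insulin, 0.00598% for IGF1 against insulin, 1.78% for X10 against glargine, and 0% for IGF1 against glargine and against X10. In the 5-group test it was 0.102%. At such background shares a count of 0 of 10 is not a result about the immediate early genes. At an unadjusted p under 0.05 the count was between 0 and 3 of 10 in these comparisons. Against vehicle that count was 1 in insulin (Myc), 2 in glargine (Junb and Myc), 0 in X10 and 1 in IGF1 tumors (Egr1), while the share of all genes at that level was 11.1%, 6.23%, 11% and 8.84%. The direction against vehicle was negative for 8 of 10 genes in insulin, 5 of 10 in glargine, 7 of 10 in X10 and 8 of 10 in IGF1 tumors. The median log2 difference of the 10 was -0.23, -0.06, -0.18 and -0.17, against 0.03, 0.02, -0.03 and 0.02 over all tested genes. These comparisons share the vehicle tumors, among which Untreated_161, Untreated_174, Untreated_182 and Untreated_187 were 4 of the 6 tumors with the highest mean level of the 10 genes.

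**Figure D2:**
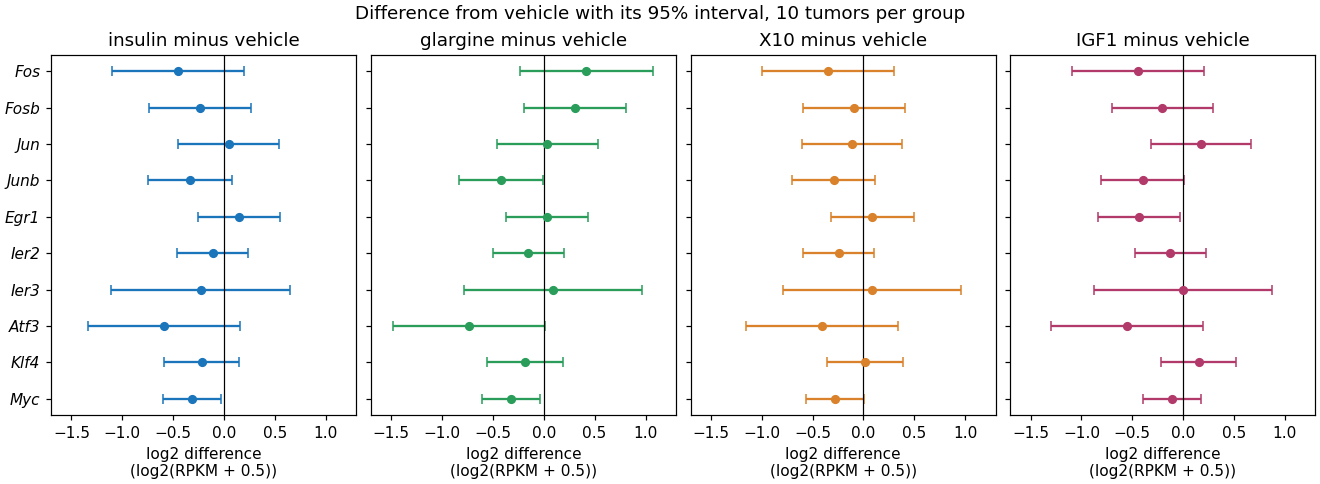
Difference of the group mean from vehicle for each gene (x axis, log2(RPKM + 0.5)) with its 95% interval from limma, 10 tumors per group. Of the 40 intervals, those of Myc (insulin and glargine), Junb (glargine) and Egr1 (IGF1) leave out 0, all on the negative side, and none was called after adjustment.

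Counts for genes upstream of the 10 and alongside them read against the same background, 0.102% of all tested genes called in the 5-group test and between 0% and 1.78% by comparison, at which 0 calls in lists of this size are not a result about the lists. Of the other immediate early genes 0 of 25 were called in the 5-group test, the smallest p-values being those of Cyr61, a matricellular growth signal (unadjusted p = 0.027, adjusted p = 0.330), and Egr2, a relative of Egr1 (adjusted p = 0.339). None was called among 8 ternary complex and CREB factors, which occupy these promoters, with Srf itself at an adjusted p of 0.416 and Mkl2, its coactivator, at 0.490. Among the AP-1 partners and inhibitors the smallest were Mafk (adjusted p = 0.340) and Mafg (0.365), small MAF proteins, with 0 of 12 rows called since Atf7 has 2 gene identifiers. The EGR co-repressors Nab1 and Nab2 and 9 tested genes of the MYC network gave 0 calls, the smallest adjusted p-values of the network being 0.394 for Mxd4 and 0.594 for Mxd1, both antagonists of Myc. Of 19 genes from the receptors to the ERK kinases 0 were called. None of these lists had a call in any of the 12 comparisons, nor had the 8 heat shock genes (smallest adjusted p of the 5-group test 0.4998, Hspb1) or the markers of epithelium, mammary gland, leukocytes, endothelium, fibroblasts, adipocytes and skeletal muscle (0.216, Csn2).

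Within a group the 10 genes differed in how much they varied. The SD within groups, on the log2 scale, was 1.01 for Ier3, 0.86 for Atf3, 0.75 for Fos, 0.56 for Jun and Fosb, 0.46 for Junb and Egr1, 0.42 for Klf4, 0.39 for Ier2 and 0.32 for Myc. The median over all tested genes was 0.41, and 92.7% of tested genes had a lower SD than Ier3 and 24.2% a lower SD than Myc. Between the lowest and the highest tumor Fosb spanned 23.8-fold, Ier3 13.7-fold, Fos 12.9-fold, Atf3 12.8-fold, Jun 11.7-fold and the other 5 between 3.89-fold (Myc) and 4.79-fold (Egr1). The share of variance that lay between groups was 18.5% for Egr1 and 18.4% for Fos, and its median was 10.7% over the 10 genes against 9.29% over all tested genes. Vehicle tumors had the largest SD of the 5 groups for 7 of the 10 genes, and for 39.7% of all tested genes. Glargine tumors had it for the remaining ones, Fos, Fosb and Atf3, and for 9.88% of all tested genes. In bulk tumors a change in the number of cells that hold a transcript and a change in its level per cell cannot be told apart.

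The spread of Junb, Ier3, Ier2 and Atf3 was shared. These correlations, and those that follow, are Spearman's rho over the 50 tumors after centring log2(RPKM + 0.5) on the group means; the points share libraries and tumor composition, and no p is given. Junb went with Ier3 at a rho of 0.80 and with Ier2 at 0.75, and Ier3 went with Atf3 at 0.695. The 6 pairs among the 4 genes lay between 0.43 and 0.80 with a median of 0.65, while the 24 pairs that joined them to the other 6 genes lay between -0.38 and 0.38 with a median of 0.11. The 4 genes were singled out after these values were seen. Within groups Junb and Ier3 had a rho of 0.90 in vehicle, 0.24 in insulin, 0.73 in glargine, 0.73 in X10 and 0.83 in IGF1 tumors, so the relation was positive in all 5 groups and lowest where Junb varied least. Ier2 and Atf3, the loosest pair, had a rho of 0.84 in vehicle and -0.02 in insulin tumors.

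Fos was not part of this set. Its rho was 0.23 with Junb, 0.14 with Ier3, 0.04 with Ier2 and -0.13 with Atf3. With Jun, its AP-1 partner, Fos had a rho of -0.08, and with Fosb 0.32. In vehicle tumor Untreated_197 the levels parted: Fos, at 66.2 RPKM, was the highest of the vehicle group, while Junb (51.5), Ier2 (13.7), Ier3 (22.9), Atf3 (3.48) and Egr1 (6.86) were each the lowest of it. Jun went against Junb at a rho of -0.38, against Egr1 at -0.30 and against Ier2 at -0.27, with a negative sign in all 5 groups for each, and went with Klf4 at 0.36. Myc reached no more than 0.27 with any other member.

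**Figure D3:**
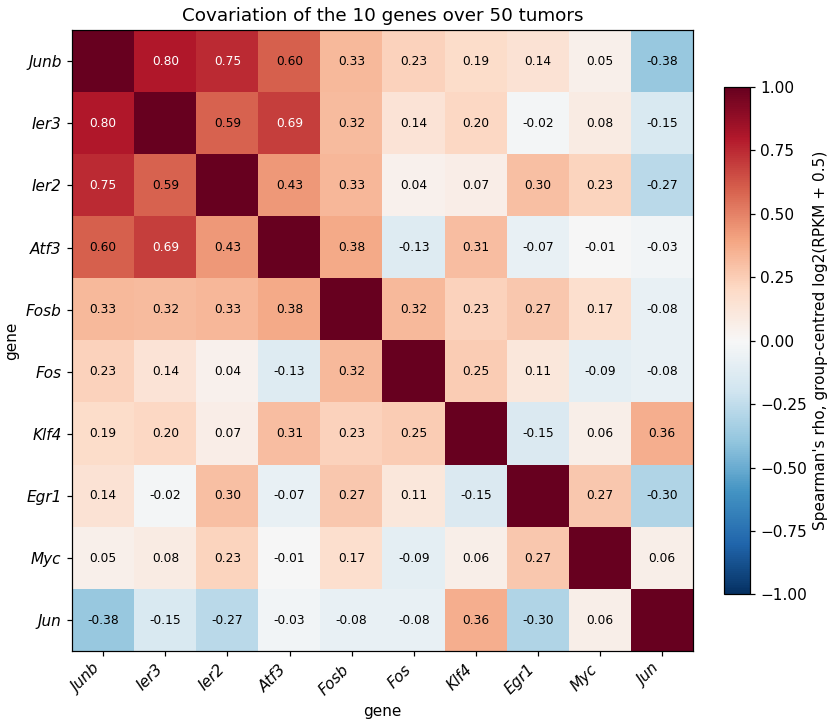
Spearman's rho between each pair of the 10 genes over 50 tumors (color scale from -1 to 1), from group-centred log2(RPKM + 0.5). Junb, Ier3, Ier2 and Atf3 form the dark corner (0.43 to 0.80), and the row of Jun is the one with most negative values (down to -0.38).

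The genes most like Fos were Mmp9, a gelatinase that osteoclasts secrete (rho 0.78), Ocstamp, which osteoclasts need to fuse (0.76), and Acp5, the tartrate-resistant acid phosphatase by which osteoclasts are stained (0.76). Osteoclasts are bone-resorbing cells of the macrophage lineage, and Fos is known to be needed for their formation. A list of 12 osteoclast genes, put together after these 3 had been seen, was set against all 10 members. Fos had a rho of at least 0.5 with 10 of the 12, with a median of 0.72 and a range from 0.44 (Itgb3 and Tnfrsf11a) to 0.78, and 1.08% of all tested genes reached 0.5 with Fos. Mmp9, Ocstamp and Acp5 were counted there, and without them 7 of 9 reached 0.5 with a median of 0.67. Ctsk, the collagen-degrading protease of osteoclasts, had 0.73, Calcr, the calcitonin receptor, 0.71 and Nfatc1, their master factor, 0.67. Without Mmp9, Ocstamp and Acp5 the mean score of the list had a rho with Fos of 0.66 in vehicle, 0.685 in insulin, 0.64 in glargine, 0.455 in X10 and 0.89 in IGF1 tumors. Of the other 9 members 0 had a rho of 0.5 or more with any gene of the list, and their medians lay between -0.26 (Atf3) and 0.10 (Klf4).

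Summed, the osteoclast genes varied far more than Fos, but Nfatc1 and Itgb3, taken singly, spanned about as much as Fos from the lowest to the highest tumor. The summed level was between 212 and 11496 RPKM in vehicle (median 1793), 329.9 and 5142 in insulin (median 1022), 167 and 13331 in glargine (median 1650.0), 212 and 7859 in X10 (median 413) and 149 and 6331 in IGF1 tumors (median 727). Of the 10 tumors with the highest Fos, 8 were among the 10 with the highest osteoclast sum, with or without the 3 leading genes in it. Tumor glargine_73 had the highest sum of all 50 (13331 RPKM) with a Fos of 72.2 RPKM, and vehicle tumor Untreated_197 had the next (11496). Tumor glargine_64, with the highest Fos (127 RPKM), was 9th in osteoclast sum, and glargine tumor glargine_53 (Fos 65.2) and IGF1 tumor IGF1_145 (Fos 46.7) were 26th and 32nd. Genes of the list were at 0 in no more than 2 tumors (Calcr). With the osteoclast score in the fit, an alternative added after seeing the data, the log2 difference of Fos between glargine and insulin was 0.63, that between X10 and glargine -0.44 and that between IGF1 and glargine -0.35, against 0.87, -0.77 and -0.87 without it. Against vehicle the difference of Fos with that score in the fit was -0.37 in insulin, 0.26 in glargine, -0.19 in X10 and -0.10 in IGF1 tumors (adjusted p of at least 0.491). The mean osteoclast score was 0.38 in glargine and -0.40 in IGF1 tumors. How far osteoclast-like cells account for the Fos values was not tested.

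The genes most like Atf3 were Slc2a1, the glucose transporter GLUT1 (rho 0.78), Pgf, a placental growth factor of the VEGF family (0.77), and Cdkn1a, the cell cycle inhibitor p21 (0.76). Slc2a1 is a target of the hypoxia-inducible factor, and a list of 10 hypoxia genes, likewise chosen after these values were seen, gave a median rho of 0.66 with Atf3, 0.64 with Ier3, 0.50 with Junb and 0.32 with Ier2. With Atf3, 9 of 10 reached 0.5, among them Ndrg1 (0.75), Adm (0.69) and Vegfa (0.68), and 1.08% of all tested genes did so. Without Slc2a1, which led to the list, it was 8 of 9. With Ier3 8 of 10 reached 0.5, against 2.39% of all tested genes. Outside these 4 genes Fosb had a median of 0.36 and Klf4 of 0.28, with all 10 genes of the list positive for both. The median was -0.05 for Fos, -0.09 for Jun and for Egr1 and 0.10 for Myc. None of these 6 members, nor Ier2, reached 0.5 with a gene of the list. Without Slc2a1 the score of the list went with Atf3 at 0.54 in vehicle, 0.72 in insulin, 0.73 in glargine, 0.66 in X10 and 0.66 in IGF1 tumors. Summed, the hypoxia genes had a median of 805 RPKM in vehicle, 787 in insulin, 839 in glargine, 1153 in X10 and 1006 in IGF1 tumors. With the hypoxia score in the fit, which is an alternative added after seeing the data, the log2 difference of Atf3 from vehicle was -0.77 in X10 and -0.84 in IGF1 tumors (adjusted p = 0.204 and 0.208), against -0.40 and -0.55 without it. Without that score and without Untreated_182 the X10 difference was -0.25.

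**Figure D4:**
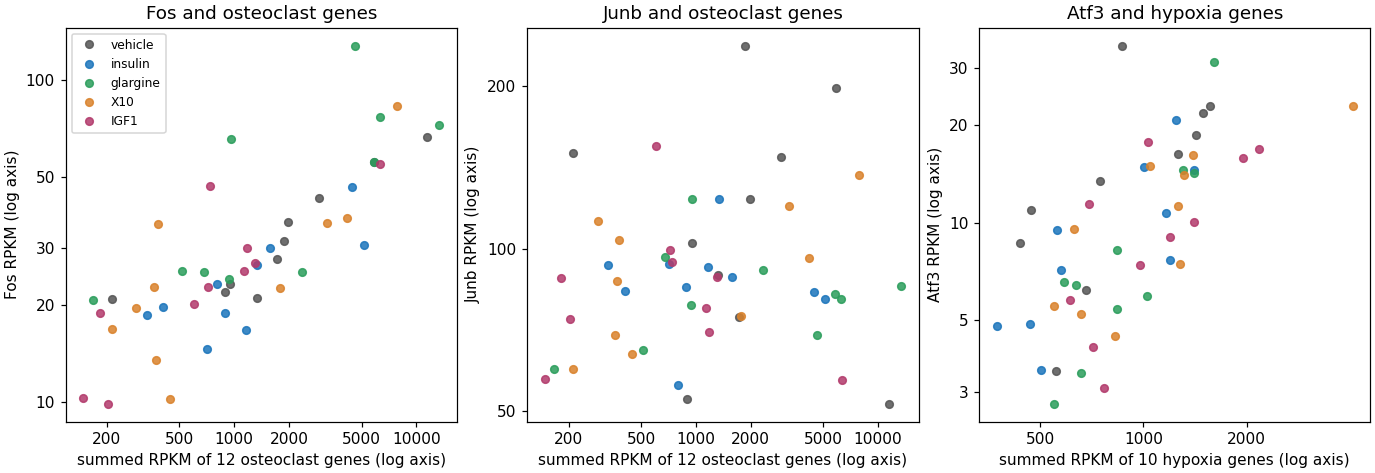
Fos and Junb against the summed RPKM of 12 osteoclast genes, and Atf3 against the summed RPKM of 10 hypoxia genes, on log axes, with 1 point per tumor colored by treatment group. Fos and Atf3 climb with their gene list across all 5 groups (median rho 0.72 and 0.66 over the genes of the list), and Junb does not follow the osteoclast genes (0.03).

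The genes most like Junb were Ankrd22 (rho 0.83), Itprip (0.83) and Cebpb (0.81), a factor of the acute phase and of myeloid cells. Those most like Ier3 were Smox, a polyamine oxidase (0.825), Il1r2, a decoy receptor for interleukin 1 (0.81), and Junb. Neutrophil and chemokine genes, a list also chosen afterwards, followed both: 7 of 7 had a rho of at least 0.5 with Junb (median 0.71, S100a8 0.79) and with Ier3 (median 0.67, Cxcl1 0.77), where 2.55% and 2.39% of all tested genes did. With Ier2 the median was 0.40, and with Atf3 0.545. Their summed level had a median of 356 RPKM in vehicle and of 142 to 236 in the other groups, and vehicle tumor Untreated_174, which held the highest Junb and Ier2, had the highest sum (3397).

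The marker scores of cell types moved with several of the genes. Over 6 epithelial markers the score had a rho of 0.54 with Junb, 0.54 with Ier2, 0.47 with Ier3 and 0.43 with Atf3, and over 6 general leukocyte markers it had -0.42, -0.37, -0.57 and -0.37. These relations were not particular to the 4 genes: the epithelial rho was 0.41 for Egr1 and for Fosb, 0.24 for Myc, 0.17 for Fos and for Klf4 and -0.44 for Jun. Within vehicle tumors the epithelial rho of Junb, Ier2, Ier3 and Atf3 was 0.84, 0.77, 0.84 and 0.83. It was negative in insulin tumors for Junb (-0.09) and Ier2 (-0.10). In X10 it was negative for Ier3 (-0.10) and Atf3 (-0.13), in IGF1 for Atf3 (-0.115), and positive elsewhere. The leukocyte rho was -0.41 for Myc and between -0.125 and 0.13 for the other 5. For Fos the score of 0.13 averaged over markers that differed. Taken singly, the 6 leukocyte markers had a rho with Fos between -0.35 and 0.57 (median 0.06), and 4 of 6 were positive. The epithelial sum was between 11.2 and 5098 RPKM in vehicle, 65.0 and 599 in insulin, 126 and 572 in glargine, 57.9 and 4151 in X10, and 9.58 and 623 in IGF1 tumors. The leukocyte sum was between 134 and 586 RPKM over all groups. Of the defining markers, Krt5 was at 0 in 2 tumors, Wap, the milk protein whose promoter drives the Cre, in 17 and Csn2 in 2, while Krt8, Krt18, Cdh1 and Ptprc were detected in all. The part of tumor composition in the shared spread was not tested.

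Ier2 and Junb lie 311.6 kb apart on chromosome 8, with 14 tested genes between them. These genes had a median rho of 0.24 with Junb and 0.33 with Ier2, and the highest were 0.56 and 0.57, against 0.75 between Ier2 and Junb. Junb overlaps Prdx2, and Jun the antisense gene Junos, on the opposite strand. The methods name the default options of HTSeq-Count, which are strand-specific, for gene counts and DEXSeq for the RPKM table. They do not say which counts the RPKM were made from, so whether reads of these pairs were told apart by strand is uncertain.

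For the other members the most alike genes were less close. Jun was most like Gtse1, which is expressed in dividing cells (rho 0.57), and all 6 cell cycle genes examined went with Jun (median 0.40) and against Junb (median -0.37). Fosb was most like Ldha-ps2 (0.56), Il6 (0.56) and Lif (0.55), both of the last being cytokines. Egr1 was most like Ide, the insulin-degrading enzyme (0.55), with 7 of all tested genes at 0.5 or more. Klf4 was most like Zfand2a, which heat shock and arsenite induce (0.61), and Myc like Pom121 (0.71), a component of the nuclear pore, and Men1 (0.665). Ier2 was most like Junb. Against the mean of the 10 genes the closest were Hsp25-ps1 (0.77), Sult2b1 (0.74), Zfand2a (0.72), Cd24a (0.71), Proser2 (0.71), Hspb1 (0.71), Slc25a48 (0.70), Rem2 (0.70), Pacsin3 (0.695) and Aqp3 (0.69). Hsp25-ps1 is a pseudogene of Hspb1, so their reads may be shared. The score of 8 heat shock genes had a rho of 0.51 with Ier3, 0.46 with Junb and -0.04 with Egr1.

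In vehicle tumor Untreated_194, where Jun was at 364 RPKM (2.98 above the median of the other vehicle tumors on the log2 scale), genes next to Jun were high too. Within 1 Mb of Jun, 8 of 11 tested genes were at least 1 above that median, against 4.49% of all tested genes in this tumor. Plaa, a ubiquitin-binding protein, was at 706 RPKM against a median of 63.1 in the other vehicle tumors, and Mysm1, a histone deubiquitinase, at 367 against 35.9. Fggy, a carbohydrate kinase, was at 82.4 RPKM against 11.4. Toward higher coordinates 3 of 8 genes at 2 to 4 Mb from Jun were raised in this way (median 0.76). At 4 to 8 Mb it was 16 of 21 (median 2.18) and at 8 to 10 Mb 4 of 7 (median 1.46). That compares with 3 of 67 at 10 to 20 Mb (median 0.09) and 2 of 23 at 4 to 10 Mb on the opposite side (median 0.06). From 1 Mb below to 8 Mb above Jun, a stretch set after these values were seen, 28 of 41 genes were raised in tumor Untreated_194, and the next tumor, IGF1_158, had 6. IGF1 tumor IGF1_158 also had the next Jun level (116.3 RPKM). Tumors Untreated_189 and glargine_63 had 5 of 41 raised, with Jun at 45.8 and 44.1 RPKM. DNA copy number was not measured in the files used here.

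**Figure D5:**
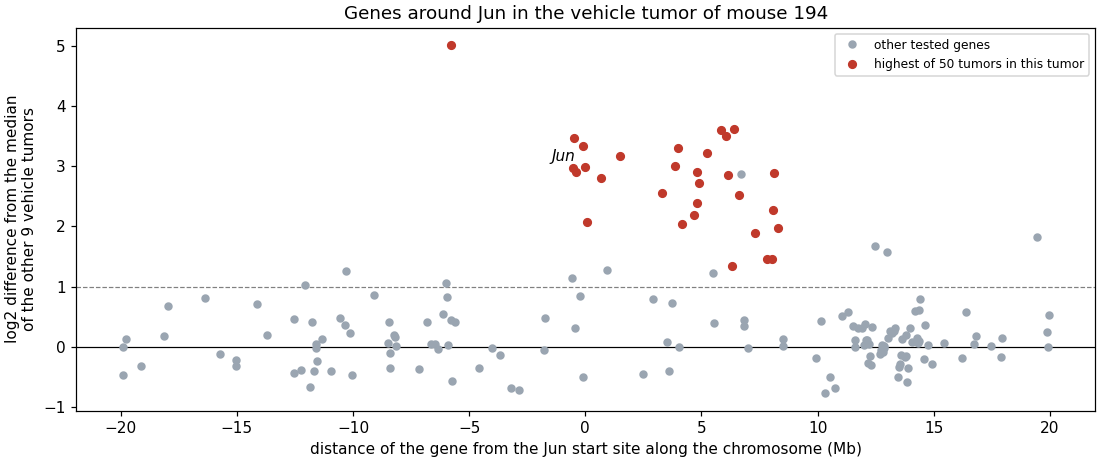
Log2 difference of each tested gene in vehicle tumor Untreated_194 from the median of the other 9 vehicle tumors (y axis), by distance from the start site of Jun in Mb (x axis). Genes whose level was the highest of all 50 tumors are red; all but 1 of them lie between 2 Mb below and 10 Mb above Jun, and genes further away lie around 0.

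In vehicle tumor Untreated_161 Myc was 1.40 above its group median on the log2 scale, and Pvt1, the only tested gene within 1 Mb, 0.505. Of the 2 other tested genes within 2 Mb, Fam84b was 2.66 above and the highest of all 50 tumors. At 10 to 20 Mb above Myc 21 of 179 genes were at least 1 above their group median, against 6.27% of all tested genes. Of the 179, 14 were the highest of all 50 tumors, a count for which no share over all tested genes was worked out. From 2 to 10 Mb above Myc 0 of 18 were at least 1 above. That tumor also had the highest Klf4 (117 RPKM) and the second-highest Egr1 (26.8), and it headed the 50 tumors by the mean z-score of the 10 genes (1.60). In glargine tumor glargine_53, next in that order (1.17), Fosb was 2.52 above the group median, with 5 of 46 neighbours at least 1 above theirs against 4.66% of all genes. Fosb (6.59 RPKM), Junb (123.6), Ier2 (43.8), Ier3 (229), Atf3 (31.3) and Klf4 (55.3) were each the highest of the glargine group in this tumor. At the other end X10 tumor X10_115 had the lowest mean (-0.93).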

How the data were processed

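RNA of 50 tumors was Poly-A selected and sequenced on the Ion Proton by the authors, who mapped reads to GRCm38 with TopHat2 2.0.10 and Bowtie2 and counted them with HTSeq 0.6.1. The deposited values are RPKM, for which the methods name DEXSeq and in which the authors divided reads by library size and gene length. Levels are not compared between genes, because the lengths implied by the values differ from annotated exon lengths (GENCODE M21) for all members but Ier2 and Ier3. Library sizes were recovered from the steps of low values, of which 96.96% or more in each tumor were whole reads: a value counted as whole where its scaled reads, rounded to the nearest unit, equalled a whole number of reads times the scale of that tumor.

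The limma package (version 3.58.1, R 4.3.3) was run on log2(RPKM + 0.5) with a variance prior that follows intensity and all 5 groups as terms, over 16733 genes with a mean of at least 0.5 RPKM. P-values were Benjamini-Hochberg adjusted over all of these, with 0.05 as threshold. This scale understates fold changes of low genes. Both steps were tested on simulated data. Spearman's rho on group-centred values (scipy 1.17.1) is a description. Named genes were the members, the list genes called or else the 2 with the smallest p in the 5-group test, the 10 genes most like the mean of the members and the 3 most like each; other names were chosen after their values were seen. 1 gene that this rule names is not reported here. The members and lists were chosen with earlier results of these data known. Alternatives were other pseudocounts, filters, scalings, variance priors and covariates, fits of only the groups compared, and each tumor left out in turn. 1 title spelled IFG1 was taken as IGF1.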

Additional observations from a re-analysis of the deposited data

Results flagged for a closer look

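In 50 checks, 10 genes in each of 5 groups of 10 tumors, 4 tumors stood further from the rest of their group on the log2 scale than Dixon's 95% limit allows. Chance alone flags about 1 in 20 groups. Jun in vehicle tumor Untreated_194 was at 364 RPKM, with a gap to the next tumor of 0.672 of the range of the group. Myc in vehicle tumor Untreated_161 was at 126 RPKM, with a gap of 0.637 of the range. Fosb in glargine tumor glargine_53 was at 6.59 RPKM, with a gap of 0.482. Ier2 in X10 tumor X10_105 was at 42.6 RPKM, with a gap of 0.47, and 1 of 58 of its neighbours was at least 1 above the group median on the log2 scale, against 12.4% of all tested genes in that tumor.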

How the results depend on the processing

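The count of members called was 0 in all 12 comparisons under every alternative that gave a value, leaving out each of the 50 tumors included. Of 6909 member values compared with the main ones, 248 differed in sign, all of them where the main difference was within 1 SE of 0; the values themselves could move by more than that, as Ier3 did with marker scores in the fit. Counts over all genes were less stable: X10 against glargine gave 298 genes, between 142 and 364 under other settings and between 76 and 577 without 1 tumor (X10_111 and X10_107). X10 against vehicle gave 11, between 1 and 24 and between 1 and 21; X10 against insulin 17, between 6 and 31 and between 5 and 95; X10 and IGF1 together 26, between 11 and 51 and between 10 and 131. The 5-group test gave 17, between 0 and 22 and between 0 and 110. The cause was not tested. A fit of only the groups compared adds nothing for the pooled comparison and the 5-group test. No paired analysis was possible because the groups share no mouse numbers. With 10 tumors per group, an SE of 0.32 for Fos and 0.44 for Ier3 limits what could be seen, and p-values measure the spread between these tumors, which the study had selected by latency.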
